A study of Mus musculus with 6 samples.

Results

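Transcripts of 8 genes that govern the activation of caspases were followed in the murine lung cancer cell line 889, in libraries labelled with a control sgRNA or with an sgRNA to kiaa1522. They are 5 inhibitors of apoptosis (Xiap, Birc2, Birc3, Birc5 and Birc6), the initiator caspases Casp8 and Casp9, and the inhibitor antagonist Diablo. They were picked by gene name, and all 8 were found among the 34745 genes of the count files. RNA from 3 libraries labelled sgcontrol was compared with RNA from 3 libraries labelled sgkiaa1522. The 889 cells are murine lung tumor cells that the study also grew as tumors in C57BL/6 mice. Both groups carried a lentiviral Cas9 construct, with an sgRNA directed at EGFP in sgcontrol and at kiaa1522 in sgkiaa1522. The sources do not say which of the kiaa1522 sgRNAs the sequenced cells carried, whether they were a clone or a pool, or whether the 3 libraries of a group came from separate cultures. The p-values therefore weigh the group difference against a spread between libraries that may be technical, and they reach no further than these libraries.

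Caspases are proteases that are held inactive until a cell commits to apoptosis. Caspase-8 is activated at death receptors and caspase-9 on the apoptosome, which forms around Apaf1 after mitochondria release cytochrome c, and both then activate executioner caspases. The inhibitors of apoptosis carry BIR domains: XIAP binds and blocks caspases directly, whereas cIAP1 (Birc2) and cIAP2 (Birc3) act mainly as ubiquitin ligases in TNF receptor complexes, where they modify RIPK1 and favor NFκB activation. Survivin (Birc5) works largely in mitosis within the chromosomal passenger complex, Birc6 is a giant ubiquitin-conjugating protein, and Diablo (Smac) leaves mitochondria to displace inhibitors from caspases. Since TNFα signaling can end in NFκB activation or in death through caspase-8, these genes bear on the study's question of what the loss of KIAA1522 changes in TNFα-NFκB signaling and cisplatin sensitivity.

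The libraries held between 12220001 and 18609376 counts, and the test covered 10046 genes whose counts summed to more than 500. Levels are given in CPM, a gene's counts relative to the library total after scaling with the TMM factors of edgeR. The mRNA of kiaa1522, listed as C77080, was not lower in the libraries labelled sgkiaa1522: it was 127 ± 2.93 CPM in sgcontrol and 210 ± 6.38 CPM in sgkiaa1522 (mean ± SD, n = 3), a log2 fold change of 0.73 (SE 0.0569, adjusted p = 9.1e-05 by the quasi-likelihood test of edgeR after the Benjamini-Hochberg procedure, which gave the adjusted p of every fold change unless another test is named). The mRNA level is no direct measure of an edit or of protein loss, neither of which these data show, and directions below are given for the libraries as labelled. The keratin Krt8 lay between 935 and 1390 CPM, as in epithelial cells, but Epcam had no count in any library. Krt8 was lower in sgkiaa1522 (log2 fold change -0.40, adjusted p = 0.0046), as was the epithelial gene Cdh1 (-1.45, adjusted p = 5.1e-05). The log2 fold change of the keratin Krt18 was -0.19 (adjusted p = 0.05). Of 8 markers of immune, endothelial and fibroblast cells, only Cd68 passed the filter, and it was higher in sgkiaa1522, with 11.3 ± 1.41 CPM against 1.2 ± 0.0512 CPM. Cd3e had no count, Ptprc had at most 14 counts in a library, and the fibroblast gene Col1a1, under the filter, had 7.01 ± 1.11 CPM in sgcontrol and 1.74 ± 0.226 CPM in sgkiaa1522. The summed level of the 8 markers, in which Col1a1 and Cd68 went in opposite directions, was 8.74 to 11.2 CPM in sgcontrol and 12.9 to 15.9 CPM in sgkiaa1522. The part of these markers in the results was not tested.

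Survivin (Birc5) and Casp8 were lower and Birc6 was higher in the libraries labelled sgkiaa1522. Birc5 fell to 0.523 times its sgcontrol level, Birc6 rose 1.43-fold and Casp8 fell to 0.829 times. Birc2, Casp9, Diablo and Xiap did not pass the test, and Birc3 was too low to be tested. Thus 3 of the 7 tested members (42.9%) had an adjusted p of at most 0.05, where 52.5% of all tested genes did. In single directions, 1 member rose and 2 fell, beside 26.3% of all tested genes in each direction. No member combined such a p with an absolute log2 fold change of 1 or more. Of all tested genes 7.08% did so, 2.74% as rises and 4.34% as falls. At an unadjusted p under 0.05 the edgeR test had 3 members, Birc5, Birc6 and Casp8. The median log2 fold change of the 7 members was -0.26, and that of all tested genes was -0.0067. In the bulk RNA used here, fewer cells with a transcript and less of it in each cell cannot be told apart.

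**Figure D1:**
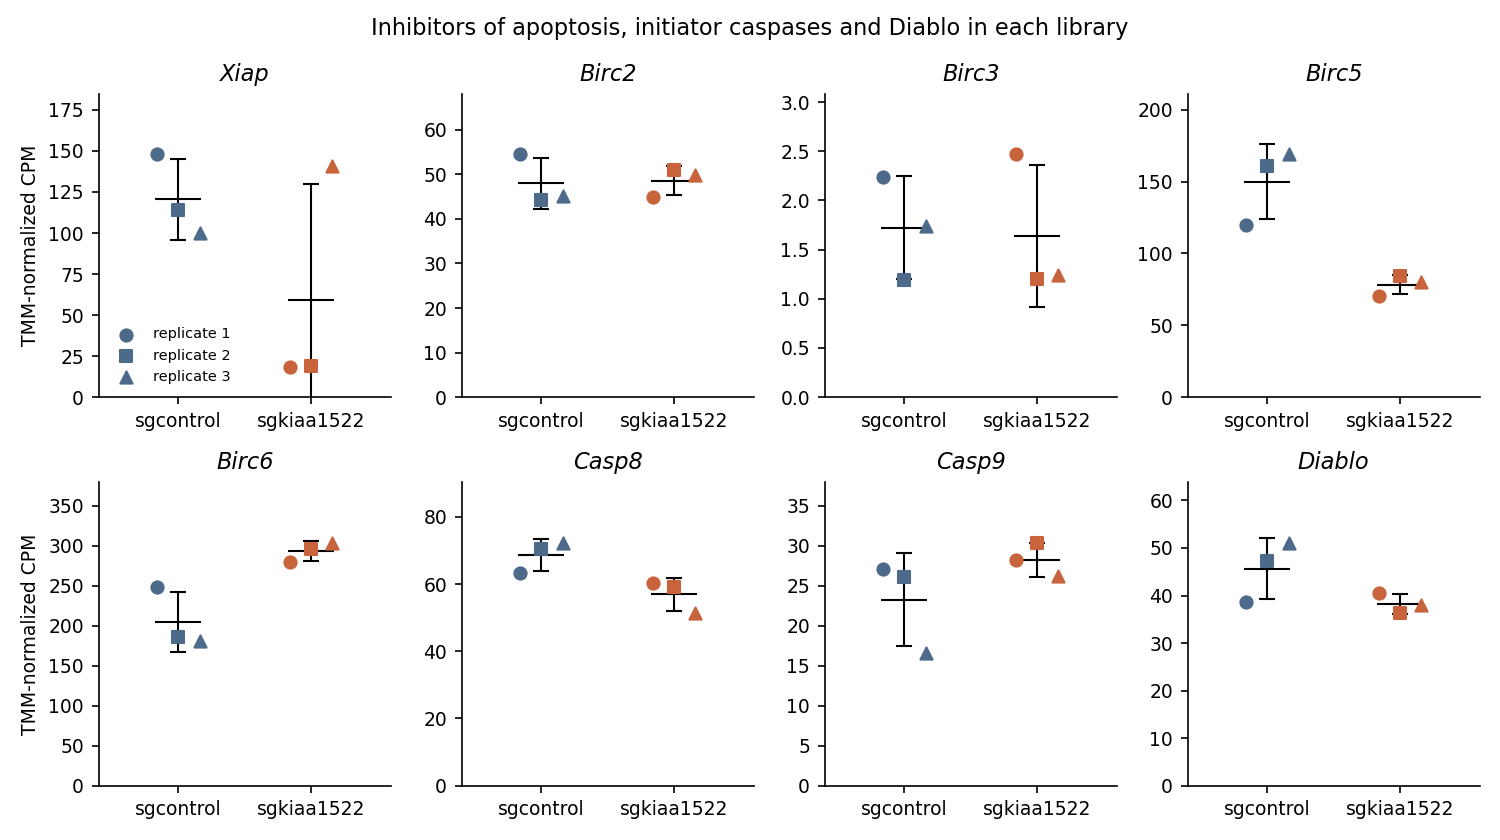
TMM-normalized CPM (y axis, from 0, a separate scale for each gene) of the 8 genes in the 3 sgcontrol (blue) and 3 sgkiaa1522 (orange) libraries, with symbols for the replicate number and bars for the mean ± SD (cut at 0 for Xiap). The groups are apart for Birc5, Birc6 and Casp8, and sgkiaa1522 library 3 of Xiap, at 141 CPM, sits far above the other 2.

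The plot of the 8 genes by library shows that the groups did not overlap for Birc5, Birc6 and Casp8, and overlapped for the other 5. Among all tested genes, the groups did not overlap for 61.7%. With 3 libraries against 3, the smallest p of the exact two-sided permutation test is 0.1, so that test alone cannot pass a threshold of 0.05 here.

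Xiap lies on the plus strand of chromosome X from 42059679 to 42109656 (GRCm38). It is the family member that inhibits caspase-9 and the executioner caspases by direct binding. The sgcontrol libraries had 148, 114 and 99.8 CPM. The sgkiaa1522 libraries had 18.1, 19.0 and 141 CPM. Libraries 1 and 2 of sgkiaa1522 were therefore below every sgcontrol library, whereas library 3 lay within the sgcontrol range. The fitted log2 fold change of -1.02 had a 95% interval from -2.73 to 0.69 and an adjusted p of 0.28. Without sgkiaa1522 replicate 3 it was -2.70, with an adjusted p of 0.00034, and without sgkiaa1522 replicate 1 or 2 it was -0.60 or -0.59, with adjusted p of 0.51 and 0.52.

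No other member varied by as much within a group. The highest sgkiaa1522 library of Xiap exceeded the lowest 7.73-fold (with 0.1 CPM added to both), against 1.48-fold among the sgcontrol libraries. The median of this spread over all tested genes was 1.13-fold in sgkiaa1522 and 1.19-fold in sgcontrol. In sgkiaa1522, 10 of the 10046 genes had a spread as large as that of Xiap or larger, itself included, and 25 genes reached 5-fold. Among the sgcontrol libraries, 13 genes reached this 7.73-fold spread and 28 genes reached 5-fold. For the other 6 tested members the sgkiaa1522 spread ran from 1.09-fold (Birc6) to 1.19-fold (Birc5). Between library 3 and the mean of libraries 1 and 2 of sgkiaa1522, Xiap differed by 2.92 on the log2 scale, and 12 genes differed by more than 2. The mRNA of kiaa1522 itself did not split this way, with 210, 203 and 216 CPM in the same 3 libraries.

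**Figure D2:**
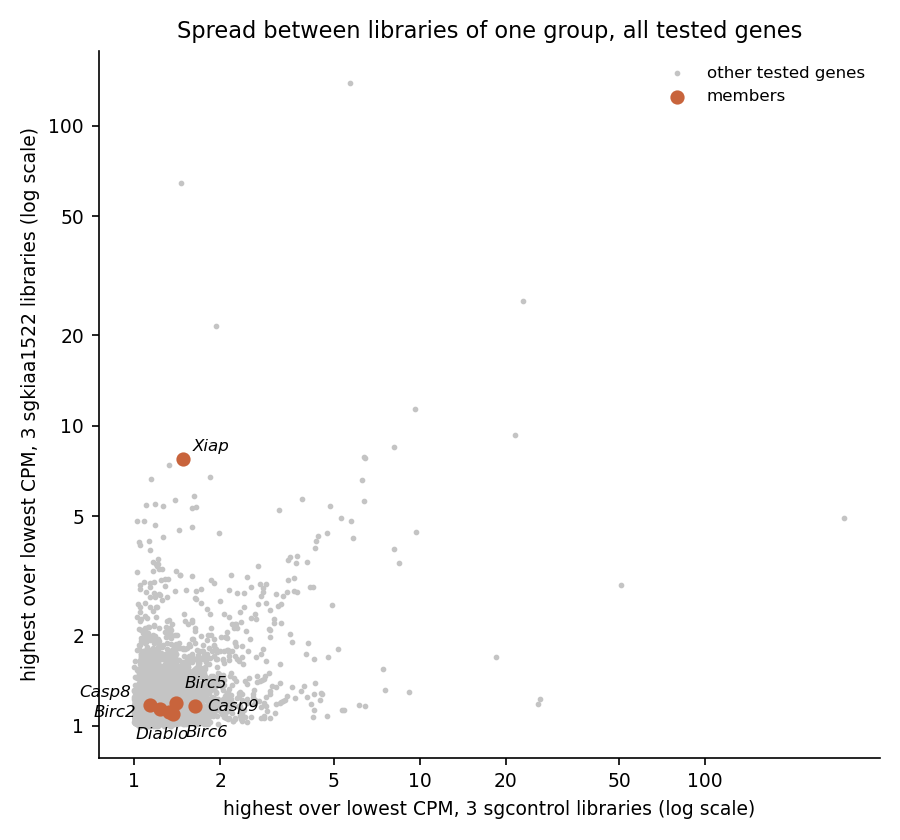
Highest over lowest CPM among the 3 libraries of a group for every tested gene, sgcontrol on the x axis and sgkiaa1522 on the y axis, both on log scales, with the 7 tested members in orange. Xiap stands at 1.48-fold and 7.73-fold, and the other 6 members are at most at 1.63-fold (Casp9 in sgcontrol) on either axis.

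The genes with the pattern most like that of Xiap were sought by the Pearson correlation of log2 CPM over the 6 libraries, as a description across libraries that share their depth and their group. The highest values were those of Phf3 (r = 0.99), Mfsd7b (0.98), Rdm1 (0.98), Actn1 (0.97) and Llgl1 (0.96). Of the 10045 other tested genes, 37 had r above 0.9 and 33 had r below -0.9. The lowest value, -0.98, was shared by Fastk, Naa40 and Fam92a. These genes differ in how far they moved. Mfsd7b had 36.4, 31.3 and 33.2 CPM in sgcontrol and 13.2, 15.3 and 43.4 CPM in sgkiaa1522. Phf3 had 222, 205 and 204 CPM in sgcontrol and 120, 115 and 242 CPM in sgkiaa1522. In both, sgkiaa1522 libraries 1 and 2 were below sgcontrol, as with Xiap but by less, and library 3 was above sgcontrol, whereas that of Xiap lay within the sgcontrol range. Llgl1 lay between 111 and 117 CPM in every library, so its high correlation covers a very small change.

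The genes on either side of Xiap did not share its pattern. Thoc2, a subunit of the mRNA export complex TREX, rose from 64.8 ± 11.0 to 100 ± 4.05 CPM (log2 fold change 0.63, adjusted p = 0.0035). Stag2, a cohesin subunit, rose from 200 ± 42.5 to 282 ± 18.3 CPM (log2 fold change 0.49, adjusted p = 0.021). Both were higher in all 3 sgkiaa1522 libraries than in any sgcontrol library, and they are the only other tested genes within 1 Mb of Xiap.

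**Figure D3:**
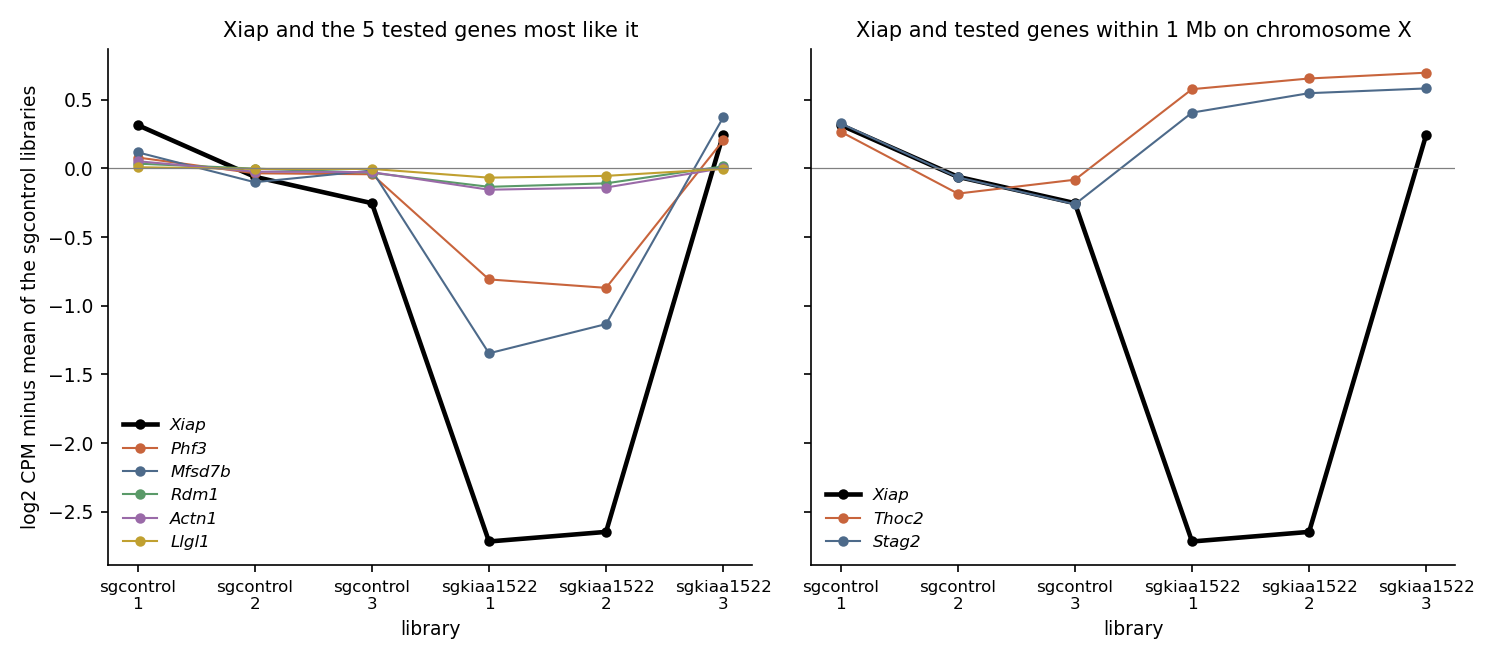
Log2 CPM minus the mean of the sgcontrol libraries (y axis) in each of the 6 libraries (x axis), for Xiap (black) with the 5 genes of highest correlation (left) and with Thoc2 and Stag2 within 1 Mb on chromosome X (right); lines only guide the eye. Xiap drops in sgkiaa1522 libraries 1 and 2 and not in library 3, Mfsd7b and Phf3 follow with smaller steps, and Thoc2 and Stag2 are up in all 3.

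The ubiquitin ligases cIAP1 and cIAP2 are encoded side by side on chromosome 9 (minus strand), by Birc2 at 7818227 to 7837064 and Birc3 at 7848699 to 7873186. Birc2 had 54.5, 44.2 and 45.2 CPM in sgcontrol and 44.8, 50.9 and 49.8 CPM in sgkiaa1522. The groups overlapped, and the log2 fold change was 0.018 with a 95% interval from -0.23 to 0.26 (adjusted p = 0.90). Birc3, which is induced by NFκB in many cells, had 39, 22 and 29 counts in sgcontrol and 30, 22 and 21 counts in sgkiaa1522, or 1.72 ± 0.526 and 1.64 ± 0.724 CPM. These counts were above a floor of 3 counts but summed to 163, under the filter, so Birc3 had no test in the main comparison. With all genes of 1 or more counts kept, its log2 fold change was -0.10 with an adjusted p of 0.84. The log2 ratio of its group means was -0.073 and had no stable sign, running from -0.50 to 0.16 over the 6 sets that omit 1 library and lying above 0 in 3 of them. The 2 genes are paralogs, and only uniquely mapped fragments were counted, so fragments from stretches they share may be missing from both.

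Survivin, Birc5, lies on the plus strand of chromosome 11 from 117849251 to 117855743. It had 120, 161 and 169 CPM in sgcontrol and 70.7, 84.2 and 80.2 CPM in sgkiaa1522. Every sgkiaa1522 library was below every sgcontrol library, and the lowest sgcontrol value was that of replicate 1. The log2 fold change was -0.94 (SE 0.135, 95% interval from -1.25 to -0.62, adjusted p = 0.0011). It kept its sign and an adjusted p of at most 0.05 in every alternative fit, including each library left out in turn. Its values there ran from -1.08 to -0.85.

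The partners of survivin in the chromosomal passenger complex had fold changes slightly above 0, and none passed the test. Aurkb, the kinase of the complex, had 66.2 ± 3.16 CPM in sgcontrol and 73.0 ± 7.88 CPM in sgkiaa1522 (log2 fold change 0.14, adjusted p = 0.24). Incenp, its scaffold, had 196 ± 8.40 and 204 ± 15.8 CPM (0.059, adjusted p = 0.53), and Cdca8, or borealin, had 69.8 ± 7.75 and 73.2 ± 9.27 CPM (0.070, adjusted p = 0.65). The ratio of counts within a library does not depend on scaling. The log2 ratio of Birc5 to Aurkb was 0.94, 1.26 and 1.3 in sgcontrol and 0.14, 0.10 and 0.065 in sgkiaa1522, a difference of -1.06. For Birc5 to Incenp the difference was -0.98, and for Birc5 to Cdca8 it was -0.99. In each of these 3 ratios the groups lay apart (p = 0.1 by exact two-sided permutation, the smallest possible, and 0.15 adjusted over the 6 ratios computed, which were chosen with the values known).

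**Figure D4:**
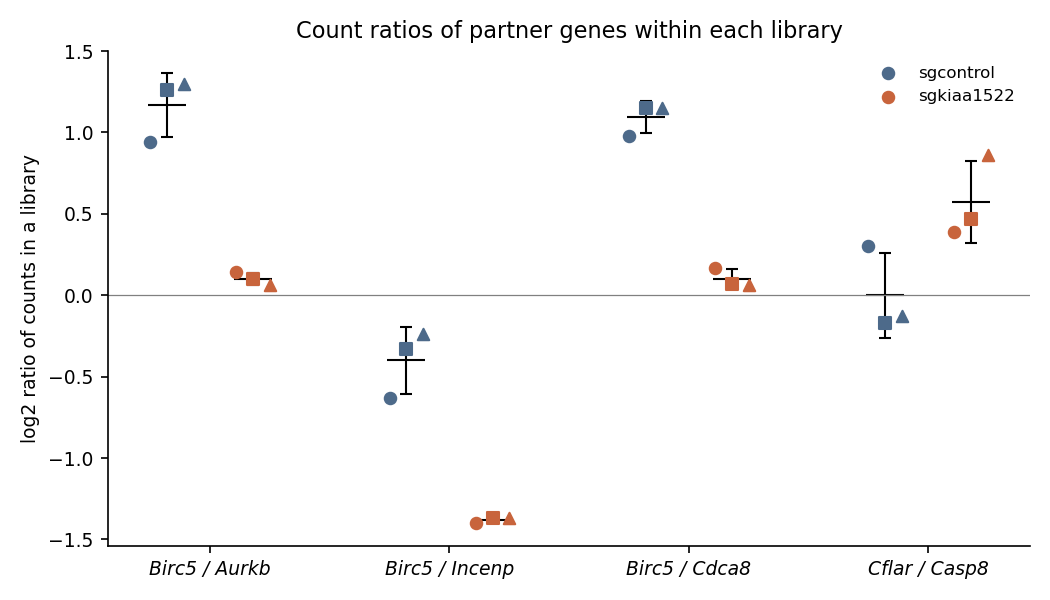
Log2 ratio of the counts of 2 genes within a library (y axis) for 4 gene pairs (x axis), in sgcontrol (blue) and sgkiaa1522 (orange), with symbols for replicates 1 to 3 as circle, square and triangle, and bars for the mean ± SD. The 3 ratios with Birc5 drop by 0.98 to 1.06 and the ratio of Cflar to Casp8 is higher by 0.57, with no overlap of the groups.

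Since the study concerns NFκB, the promoter windows of the members were searched for the NFκB consensus motif on both strands. The windows reach from 250 bases before to 50 bases after each RefSeq transcript start (GRCm38.p6). All 8 genes had an entry, with 11 windows in all. A match was found in 2 of the 11 windows, that of Birc5, with 2 sites, and 1 of those of Xiap, with 1 site. The remaining windows of Xiap had none, and its site is placed relative to the start of its own window. The other 6 genes had none in these windows. Of 32851 RefSeq windows of this size, 8.46% held a match and 1.22% held 2 or more. The sites are shown 5′ to 3′ with 5 bases on either side, and capitals mark the match.
Birc5, 44 bases before the start, chr11:117849193-117849202: ggggcGGGACTTTCCcggct
Birc5, 20 bases after the start, chr11:117849257-117849266: gggccGGGGCTCTCCcggca
Xiap, 22 bases after the start, chrX:42068420-42068429: cctccGGGACCCTCCcctcg

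The 250 bases before the Birc5 start (plus strand, chr11:117848987-117849236) are given because Birc5 showed the largest change among the members that passed the test and had 2 of the matches. Capitals again mark the match to the consensus.
Birc5 upstream: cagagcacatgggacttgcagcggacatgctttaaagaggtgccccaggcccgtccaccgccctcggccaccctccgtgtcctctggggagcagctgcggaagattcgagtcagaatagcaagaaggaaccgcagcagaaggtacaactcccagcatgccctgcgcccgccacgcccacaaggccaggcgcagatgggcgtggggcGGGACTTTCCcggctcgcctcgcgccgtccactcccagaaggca
A match says that these letters are present. Binding was not measured in these samples.

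Birc6 lies on the plus strand of chromosome 17 from 74528295 to 74703356, and its exons cover 25772 bases, more than those of any other member. It had 248, 186 and 181 CPM in sgcontrol and 280, 296 and 304 CPM in sgkiaa1522. All sgkiaa1522 libraries were above all sgcontrol libraries, with sgcontrol replicate 1 the nearest. The log2 fold change was 0.52 (SE 0.122, 95% interval from 0.23 to 0.80, adjusted p = 0.0094). The adjusted p stayed at most 0.05 in every alternative fit, from 0.00019 (DESeq2's Wald test) to 0.036 (edgeR without sgcontrol replicate 2). The antisense gene Gm26749 overlaps 2.37% of its exon bases and had no count.

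Casp8, the initiator caspase of death receptors, lies on the plus strand of chromosome 1 from 58795374 to 58847503. It had 63.4, 70.3 and 72.3 CPM in sgcontrol and 60.3, 59.0 and 51.4 CPM in sgkiaa1522. The groups did not overlap, but the closest libraries, sgcontrol replicate 1 and sgkiaa1522 replicate 1, were near each other. The log2 fold change was -0.27 (SE 0.0921, 95% interval from -0.49 to -0.056, adjusted p = 0.040). This call was lost without sgcontrol replicate 2 or 3 (adjusted p = 0.11 for both), without sgkiaa1522 replicate 2 or 3 (0.073 and 0.13), and with all genes of 1 or more counts in the test (0.055).

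Cflar, the gene next to Casp8, encodes cFLIP, which restrains caspase-8 at death receptors and is induced by NFκB in many cells. It rose from 68.9 ± 8.22 to 84.6 ± 7.67 CPM (log2 fold change 0.30, adjusted p = 0.048). The log2 ratio of Cflar to Casp8 counts was 0.30, -0.17 and -0.13 in sgcontrol and 0.39, 0.47 and 0.86 in sgkiaa1522. The groups lay apart, and the difference of 0.57 compares with SDs of 0.262 and 0.253 (p = 0.1 by exact two-sided permutation, 0.15 adjusted over the 6 ratios).

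Casp9, the caspase of the apoptosome, lies on the plus strand of chromosome 4 from 141793612 to 141815976. It had 27.1, 26.1 and 16.6 CPM in sgcontrol and 28.2, 30.4 and 26.2 CPM in sgkiaa1522. The groups overlapped, and the mean of sgcontrol was set by its low replicate 3. The log2 fold change was 0.28 with a 95% interval from -0.15 to 0.70 (adjusted p = 0.23), and without sgcontrol replicate 3 it was 0.082. The ratio of Apaf1 to Casp9 differed by 0.14 on the log2 scale between the groups, with an exact two-sided permutation p of 0.5.

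Diablo, the mitochondrial antagonist of the inhibitors, lies on chromosome 5 (minus strand) at 123509765 to 123524176. It had 38.7, 47.2 and 51.1 CPM in sgcontrol and 40.5, 36.4 and 37.9 CPM in sgkiaa1522. The sgcontrol replicate 1 lay among the sgkiaa1522 libraries, and the other 2 were above them. The log2 fold change was -0.26 with a 95% interval from -0.52 to 0.012 (adjusted p = 0.097). Without sgcontrol replicate 1 it was -0.37, with an adjusted p of 0.0081. B3gnt4 overlaps 21.5% of the exon bases of Diablo on the other strand, with at most 2 counts in a library, and Gm49027 overlaps 19.3% on the same strand and was not analysed here. The log2 ratio of Xiap to Diablo was 1.93, 1.28 and 0.97 in sgcontrol and -1.16, -0.94 and 1.89 in sgkiaa1522. Again sgkiaa1522 library 3 stood with the sgcontrol libraries (exact two-sided permutation p = 0.3).

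The members spanned a wide range of levels. Per kilobase of exon, sgcontrol had the order Birc5 (44.1 ± 7.67 CPM per kb), Casp8 (23.7 ± 1.62), Xiap (12.7 ± 2.60), Birc2 (10.5 ± 1.23), Birc6 (7.95 ± 1.45), Diablo (7.40 ± 1.02), Casp9 (4.48 ± 1.12) and Birc3 (0.344 ± 0.105). The ranges of Xiap and Birc2, and those of Birc6 and Diablo, overlapped among the 3 libraries, while the other neighbours in this order did not. In sgkiaa1522 the order was Birc5 (23.0 ± 2.04 CPM per kb), Casp8 (19.7 ± 1.66), Birc6 (11.4 ± 0.472), Birc2 (10.6 ± 0.709), Xiap (6.26 ± 7.45), Diablo (6.20 ± 0.333), Casp9 (5.44 ± 0.402) and Birc3 (0.327 ± 0.144). There Birc5 and Casp8 overlapped, as did Birc6 and Birc2, and Xiap overlapped both of its neighbours. The place of Birc6 depends on the length used, because its 22 annotated transcripts average 4742 bases. Per kilobase of mean transcript length it was second in sgcontrol and first in sgkiaa1522. Other places changed with this length as well. In sgcontrol Casp8 (34.4 CPM per kb) came below Xiap (36.6), and Diablo (32.6) came above Birc2 (27.1). In sgkiaa1522 Diablo (27.3) came above Xiap (18).

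Around these 8 genes, 41 other genes of the same pathways were examined by role. Of them, 25 were tested, 5 rose and 10 fell (60% called, against 52.5% of all tested genes), and 10 did not pass the test. Their median log2 fold change was -0.15. Only Xaf1 was past 2-fold. The number that rose was sensitive to single libraries: it was 1 without sgcontrol replicate 2, 2 without sgcontrol replicate 3, and 3 without sgkiaa1522 replicate 2 or 3, while the number that fell stayed between 9 and 12.

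Among the other antagonists of the inhibitors, Xaf1, an interferon-inducible protein known to bind XIAP, fell from 15 ± 0.995 to 3.29 ± 0.791 CPM. This was the largest fall of the list (log2 fold change -2.21, adjusted p = 9.2e-05). Unlike Xiap, Xaf1 was low in all 3 sgkiaa1522 libraries, at 4.20, 2.78 and 2.89 CPM. Htra2, a mitochondrial protease that also binds inhibitors of apoptosis, had 76.2 ± 9.35 and 75.3 ± 3.23 CPM (adjusted p = 0.90). All 5 other inhibitors of the family were under the filter. Of these, Naip2 had 1.33 ± 0.163 CPM in sgcontrol and 3.36 ± 0.706 CPM in sgkiaa1522, while Naip6 had 1.58 ± 0.125 and 0.938 ± 0.155 CPM and Naip5 had 0.540 ± 0.331 and 0.383 ± 0.181 CPM. Naip1 had 1 count in all, and Birc7 had no count. The Naip genes are close paralogs, so their counts are uncertain.

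Of 6 other caspases examined, 2 were tested, and both fell, as did 26.3% of all tested genes. Casp6, an executioner caspase, fell from 32.8 ± 3.32 to 19.0 ± 0.756 CPM (log2 fold change -0.79, adjusted p = 0.00066). Casp2, the caspase of the PIDDosome, fell from 40.2 ± 1.03 to 31.7 ± 2.13 CPM (-0.34, adjusted p = 0.010). Pidd1, which assembles the PIDDosome, fell from 10.5 ± 0.888 to 6.36 ± 0.970 CPM (-0.72, adjusted p = 0.0054). Cradd, the other gene examined in the PIDDosome role, had overlapping groups and did not pass the test (-0.32, adjusted p = 0.14).

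On the mitochondrial side, both tested factors rose, beside 26.3% of all tested genes. Apaf1, the core of the apoptosome, rose from 19.6 ± 3.51 to 26.5 ± 1.94 CPM (log2 fold change 0.43, adjusted p = 0.033). Aifm1, the apoptosis-inducing factor, rose from 67.9 ± 1.68 to 81.7 ± 3.98 CPM (0.27, adjusted p = 0.012). Among the substrates and inhibitors of nuclear fragmentation, both tested genes fell, again beside 26.3%. Dffa, the inhibitor of the caspase-activated DNase, fell by 0.66 on the log2 scale (adjusted p = 0.0034), and Parp1, a DNA repair enzyme cleaved during apoptosis, fell by 0.41 (adjusted p = 0.0015).

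In the death receptor group 6 of 10 genes were tested. Of these, 2 rose and 2 fell, beside 26.3% of all tested genes in each direction. Fadd (log2 fold change -0.42, adjusted p = 0.064) and Tradd (0.086, adjusted p = 0.66) did not pass the test. Ripk1, the kinase that cIAP1 and cIAP2 ubiquitinate, rose from 20.6 ± 1.95 to 31.8 ± 9 CPM (log2 fold change 0.62, adjusted p = 0.030). Its sgkiaa1522 replicate 1, at 42.0 CPM, was well above the other 2, at 25.2 and 28 CPM. Besides Ripk1, Cflar rose, as given above. Mlkl, the effector of necroptosis, fell by 0.53 (adjusted p = 0.0027), and Tnfrsf10b, the TRAIL receptor of the mouse, fell by 0.49 (adjusted p = 0.0042). Fas, Fasl, Tnfsf10 and Ripk3 had between 0 and 6 counts summed over the 6 libraries.

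Of the 4 partners of cIAP1 and cIAP2, all tested, 1 rose and 2 fell, beside 26.3% of all tested genes in each direction, and Traf3 did not pass the test (log2 fold change 0.14, adjusted p = 0.42). Traf1 rose from 12.1 ± 3.10 to 20.6 ± 1.37 CPM (log2 fold change 0.77, adjusted p = 0.0085). Traf2, which recruits the cIAPs to TNF receptors, fell from 33.5 ± 1.69 to 27.1 ± 1.43 CPM (-0.31, adjusted p = 0.018). Map3k14, the NFκB-inducing kinase NIK that the cIAPs mark for degradation in resting cells, fell from 28.7 ± 1.24 to 17.6 ± 1.96 CPM (-0.71, adjusted p = 0.0012). Of the XIAP partners Tab1 and Map3k7 (TAK1), neither passed the test, and the low value of Map3k7 was that of sgcontrol replicate 3, at 26.1 CPM beside 56.3 and 56.1 CPM.

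**Figure D5:**
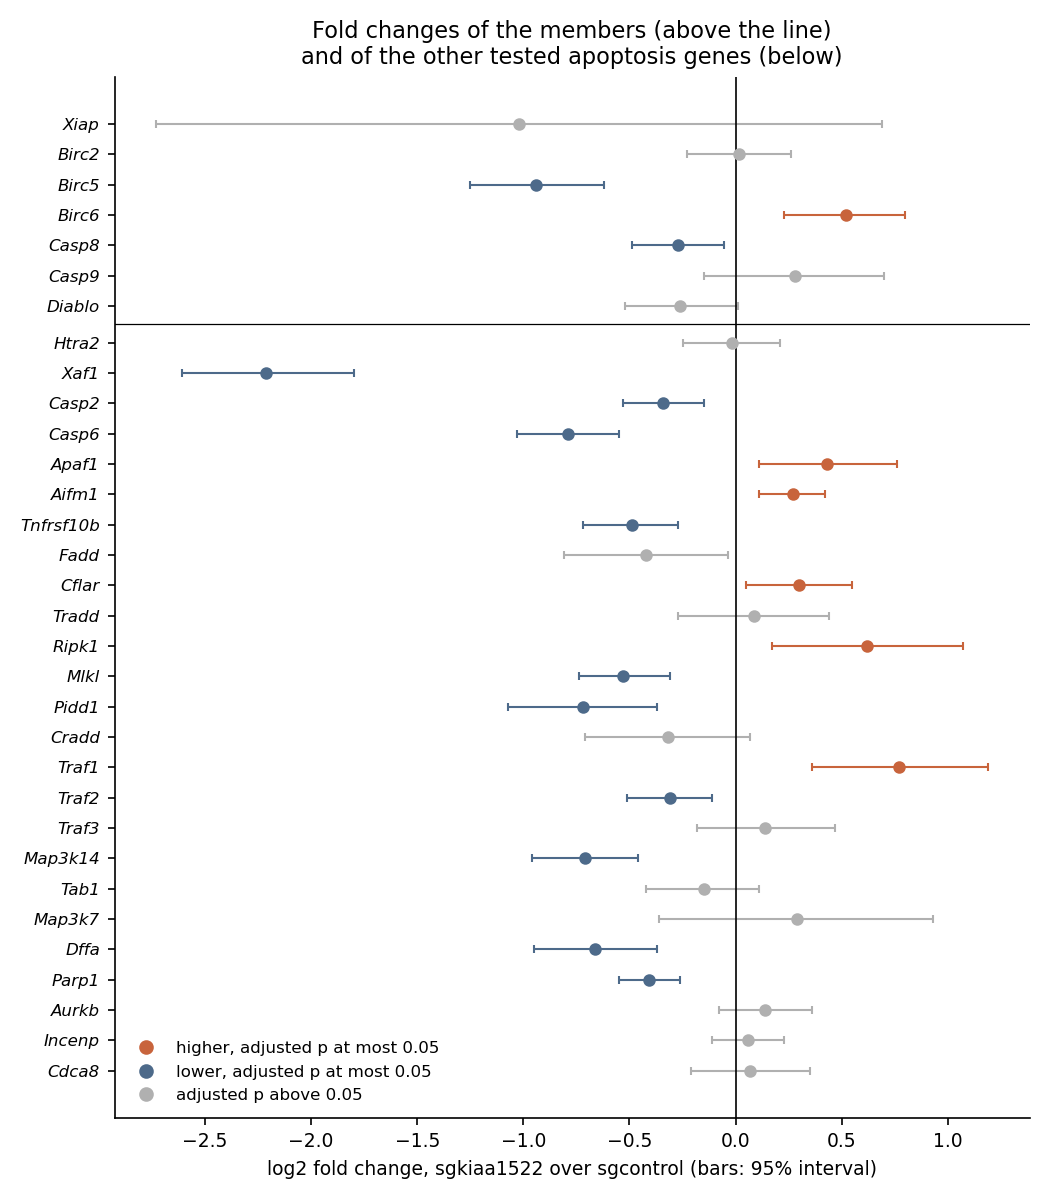
Log2 fold change of sgkiaa1522 over sgcontrol with its 95% interval (x axis) for the 7 tested members (above the line) and the 25 tested genes of the same pathways (below), in orange where higher and in blue where lower with an adjusted p of at most 0.05, and in grey otherwise. Birc5 and Xaf1 stand farthest left among the colored genes of each panel, and the interval of Xiap spans from -2.73 to 0.69.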

How the data were processed

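RNA of 889 cells was sequenced in 6 libraries, grouped by their labels. The authors trimmed adaptors and removed rRNA reads with Seqtk, mapped to GRCm38 with HISAT2 2.0.4 and counted uniquely mapped fragments per gene with StringTie 1.3.0 (tools also named in the submitters' processing notes). The deposited values are whole-number counts, without normalization. Annotation release and strand setting were not given in the sources used here. Positions and exon lengths came from GENCODE M21.

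Genes with more than 500 summed counts (10046, holding 99.5% to 99.6% of a library) were tested with edgeR 4.0.16 (R 4.3.3, limma 3.58.1), TMM factors of 0.989 to 1.01, the quasi-likelihood test without covariates and Benjamini-Hochberg adjustment over all tested genes. This filter and the joint threshold (adjusted p of at most 0.05 with an absolute log2 fold change of at least 1) follow the study's methods, and the adjusted p alone, used for most calls here, was added. Intervals cover 95%. A floor of 3 counts is 0.162 to 0.247 CPM and covers counting error only. Single values were compared by exact two-sided permutation. The fits were tested on simulated data. Counts of any 2 libraries of a group differed by more than sampling noise (chi-square over its degrees of freedom 12.3 or more), so none repeats another.

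The members and lists were chosen with earlier results of these data known, and 2 genes of the pathway list are not reported here. Named genes are the members, C77080, within each role the 2 largest rises and falls that passed the test, the 5 genes most and 3 least correlated with Xiap, tested genes within 1 Mb of Xiap, the nearest tested genes of the other members and genes overlapping a member. Other genes are named after their values were seen, as partners, for low counts or as tested genes that did not pass. Markers of cell types, of lung lineage and of progressed lung adenocarcinoma are named as well. Alternatives were RLE factors, library size alone, 2 other filters, DESeq2 1.42.0, the replicate number as a block, each library left out, other thresholds and mean transcript length.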

Additional observations from a re-analysis of the deposited data

How the results depend on the processing

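Birc5 and Birc6 kept their direction and an adjusted p of at most 0.05 in every alternative fit. Casp8 kept its direction, but its call was lost at an adjusted p of 0.055 (log2 fold change -0.27) with every gene of at least 1 count and of 0.10 (-0.27) with the replicate block, and in 4 of the 6 fits that left out a library, over which its log2 fold change ranged from -0.33 to -0.20. Without 1 library, Xiap ranged from -2.70 to -0.59 and passed only without sgkiaa1522 replicate 3, Diablo ranged from -0.37 to -0.17 and passed only without sgcontrol replicate 1, and Birc2 ranged from -0.042 to 0.11, with its sign turned to -0.042 and -0.027 without sgcontrol replicate 2 and 3, and to -0.018 and -0.0016 without sgkiaa1522 replicate 2 and 3, at adjusted p of at least 0.80. The number of members that fell, 2, became 1 with every gene of at least 1 count and 1 with the replicate block, and ranged from 1 to 3 without 1 library. The number of other apoptosis genes that rose, 5, became 3 with the replicate block and 4 with library size alone. It became 7 with every gene of at least 1 count and 6 with the filterByExpr filter of edgeR. Without 1 library it ranged from 1 to 5. With all 6 libraries, no member passed the adjusted p together with an absolute log2 fold change of 1, whereas 3 passed the adjusted p alone and 2 passed at 0.01. Birc5 passed both without sgcontrol replicate 1 (-1.08, adjusted p = 0.00017), as did Xiap without sgkiaa1522 replicate 3 (-2.70, adjusted p = 0.00034). The cause of these changes was not tested.

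Same-numbered libraries did not deviate together: the correlations of their deviations from the group means were -0.214, -0.0508 and -0.165, and no library matched its own number best. With the number as a block, the log2 fold change of Xiap was -1.73 (adjusted p = 0.10), and the calls went from 2638 higher and 2639 lower to 2109 and 2111.

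Per kilobase of mean transcript length, the levels in sgcontrol and sgkiaa1522 were 70.1 and 36.6 CPM for Birc5, 43.2 and 61.8 for Birc6, 36.6 and 18.0 for Xiap, 34.4 and 28.5 for Casp8, 32.6 and 27.3 for Diablo, 27.1 and 27.4 for Birc2, 14.9 and 18.0 for Casp9, and 1.44 and 1.37 for Birc3. Birc3 was under the filter of 500 counts, so the normalization, DESeq2 and block alternatives did not cover it. It had a log2 fold change of -0.10 and -0.11 under the other 2 filters (adjusted p = 0.84 and 0.83).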

Other observations

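The nearest tested genes on either side of the members other than Xiap were 12 genes besides the members themselves. Of these, 4 passed the test, where 52.5% of all tested genes did. Yap1, the transcriptional coactivator of Hippo signaling that lies beside Birc2 and Birc3 on chromosome 9, rose from 126 ± 10.8 to 170 ± 3.50 CPM (log2 fold change 0.43, adjusted p = 0.0024). Yipf4, beside Birc6, fell from 127 ± 7.92 to 106 ± 3.21 CPM (-0.26, adjusted p = 0.015), whereas Birc6 rose. Dnajc16, beside Casp9, rose from 17.3 ± 0.847 to 20.9 ± 1.2 CPM (0.27, adjusted p = 0.044), and Cflar, beside Casp8, rose as given in the report. The genes beside Birc5 were Afmid (18.1 ± 10.8 and 16.4 ± 9.52 CPM) and Socs3, the feedback inhibitor of cytokine signaling (37.7 ± 2.02 and 39.1 ± 1.38 CPM), and neither passed the test (adjusted p = 0.85 and 0.61). Ttc27, Trak2, Tmem123, Efhd2, Mlxip and Vps33a did not pass either.

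The lung lineage gene Sftpb fell from 21.6 ± 4.03 to 13.6 ± 1.79 CPM (log2 fold change -0.67, adjusted p = 0.012). Sftpc (3.36 ± 2.68 and 0.983 ± 0.431 CPM) and Napsa (1.11 ± 0.145 and 0.177 ± 0.0952 CPM) were under the filter. The lung lineage factor Nkx2-1 varied within both groups. It had 55.7, 59.1 and 13.6 CPM in sgcontrol and 10.9, 9.49 and 39.5 CPM in sgkiaa1522, so that, as with Xiap, sgkiaa1522 library 3 was above libraries 1 and 2, and the log2 fold change of -1.09 did not pass the test (adjusted p = 0.21). Hmga2, a marker of progressed lung adenocarcinoma, rose from 208 ± 11.3 to 313 ± 21.9 CPM (0.59, adjusted p = 0.00059), and Cdh1, or E-cadherin, fell from 56.4 ± 4.94 to 20.6 ± 1.15 CPM (-1.45, adjusted p = 5.1e-05).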
